A study of Mus musculus with 66 samples.

Results

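The macrophage and monocyte genes described here are 10 mouse genes: Csf1r, Adgre1, Cd68, Cd163, Mrc1, Cx3cr1, Ccr2, Ly6c2, Arg1 and Chil3. They were chosen by symbol from the 30452 genes that have values, and all 10 were found. The study gave wild-type C57Bl/6 mice, bought at 6 weeks of age, 3% dextran sulfate sodium (DSS) for 6 days, which injures the colonic mucosa. There were 19 mice: 4 uninjured mice killed at day 0 and 3 mice killed at each of days 3, 6, 9, 14 and 20 counted from the start of DSS. Mice of day 3 had therefore not completed the course, and mice of days 9, 14 and 20 had been off DSS. Mice are numbered 1 to 4 (day 0), 5 to 7 (day 3), 8 to 10 (day 6), 11 to 13 (day 9), 14 to 16 (day 14) and 17 to 19 (day 20). From every mouse a section of mid-colon, of rectum and of anus was sequenced, and from each of the 9 mice of days 9 to 20 also a section of squamous neo-epithelium, which gives 66 samples. The muscle layer was cut away before RNA was extracted. There was no undosed group at the later days, so age and time cannot be told apart from injury.

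Many macrophages of the adult gut wall are replaced throughout life by monocytes from the blood. A classical monocyte carries the chemokine receptor CCR2, which responds to CCL2, and the surface protein Ly6C. As it matures in the mucosa it loses both and gains CX3CR1, the receptor of fractalkine, and scavenger receptors such as CD163 and the mannose receptor MRC1. CSF1R is the receptor of the growth factor CSF1, on which macrophages depend, ADGRE1 is the F4/80 antigen and CD68 is a glycoprotein of lysosomes. Arg1 (arginase 1, which splits arginine into ornithine and urea) and Chil3 (the chitinase-like lectin Ym1) are induced in macrophages by interleukin-4. Neither is specific to them: arginase 1 is also made by squamous epithelium, and Ym1 by neutrophils.

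Levels are transcripts per 1000000 (TPM), a share of the library adjusted for transcript length, so levels of different genes can be set side by side. Read depth per sample is unknown, because the values were deposited without counts. Between 11268 and 13789 genes reached 1 TPM in a sample. The sections differed in the cells they held: the summed level of 5 squamous epithelial genes (Krt5, Krt14, Krt13, Krt4 and Trp63) was 8694 to 14463 TPM in uninjured anus, 11.8 to 106 TPM in uninjured rectum and 3.70 to 7.77 TPM in uninjured mid-colon. Anal sections also carried 833 to 9378 TPM of 5 skeletal muscle genes at day 0. In these bulk samples more cells of a type and more RNA per cell cannot be told apart. TPM shares also move with the rest of the library: scaling by trimmed means (TMM) moved the median log2 change of all genes from -0.27 to -0.03 at day 6 in the rectum, from -0.24 to -0.04 at day 6 in mid-colon and from 0.13 to -0.02 at day 9 in the rectum. The share of all calls that were higher went from 23.7% to 51.8%, from 33.1% to 53.0% and from 62.7% to 49.1% in those comparisons. In uninjured rectum against mid-colon it went from 84.7% to 38.1%, in mid-colon from day 6 to day 9 from 77.1% to 53.1%, and from day 9 to day 20 from 28.7% to 47.8% in the rectum and from 38.6% to 52.8% in neo-epithelium. In the day 9 interaction tests it went from 89.3% to 66.2% (rectum minus mid-colon) and from 21.9% to 36.6% (anus minus rectum). No member that was called reversed its direction under that scaling.

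2 of the 10 genes have near copies from which short reads are hard to separate, and their sequences are shown because every Ly6c2 and Chil3 value below depends on them. Ly6c2 (GRCm38 chr15:75108158-75111970, minus strand) and Ly6c1 each have 396 coding bases that are 97.7% identical, with 9 mismatches. Of the 31-base words of the Ly6c2 transcripts, 21.4% also occur in Ly6c1 and 23.8% in any other gene, Ly6c1 included. The coding bases 1 to 90 of both, from GENCODE transcripts, follow with the bases that differ in capitals.
Ly6c2: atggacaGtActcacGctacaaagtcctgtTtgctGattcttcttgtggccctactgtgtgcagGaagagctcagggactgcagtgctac
Ly6c1: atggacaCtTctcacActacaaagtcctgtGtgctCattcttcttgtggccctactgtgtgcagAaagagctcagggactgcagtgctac

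This 90-base window holds 6 of the 9 differences. Ly6c1 was the far more abundant of the pair, at 80.1 ± 11.6 TPM in uninjured rectum (SD, n = 4) and 2181 ± 916 TPM on day 9 (n = 3), that is 28.4 and 56.1 times the mean of Ly6c2 in the same groups. How much of the Ly6c2 value comes from Ly6c1 reads was not tested. Chil3 (GRCm38 chr3:106147554-106167564, minus strand) is 94.4% identical to Chil4 over the coding sequence and shares 28.9% of its 31-base words with it. In all, 41.5% of its words occur in 4 other genes, Chil4 included. The coding bases 827 to 916 follow, where 12 bases differ, in capitals.
Chil3: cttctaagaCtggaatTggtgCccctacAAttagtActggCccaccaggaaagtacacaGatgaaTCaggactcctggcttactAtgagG
Chil4: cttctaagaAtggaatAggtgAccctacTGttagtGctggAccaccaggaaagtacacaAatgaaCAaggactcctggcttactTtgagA

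Chil4 was at or near 0 in every group, with a highest single value of 0.815 TPM, so the deposited quantification placed few reads on Chil4. The levels of the other genes that share words with Chil3 were not examined. Csf1r shares 17.4% of its 31-base words with Hmgxb3. Adgre1, Cd68, Mrc1 and Arg1 share none with another gene, and the share in Cd163, Cx3cr1 and Ccr2 was 0.713%, 2.62% and 3.48%. On GRCm38, Adgre1 lies at chr17:57358691-57483527 (plus strand), Cd68 at chr11:69664213-69666153 (minus), Cd163 at chr6:124304656-124330527 (plus) and Mrc1 at chr2:14229392-14332057 (plus). Cx3cr1 at chr9:119901616-120069879 (minus) and Ccr2 at chr9:124101950-124113557 (plus) share a chromosome, and Arg1 lies at chr10:24915221-24927484 (minus). Mrc1 carries another limit: 53.7% of its TPM over all samples lay on a transcript annotated as a retained intron, and the rest on the protein-coding transcript.

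The plot of all 10 genes by section and day gives each sample.

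**Figure D1:**
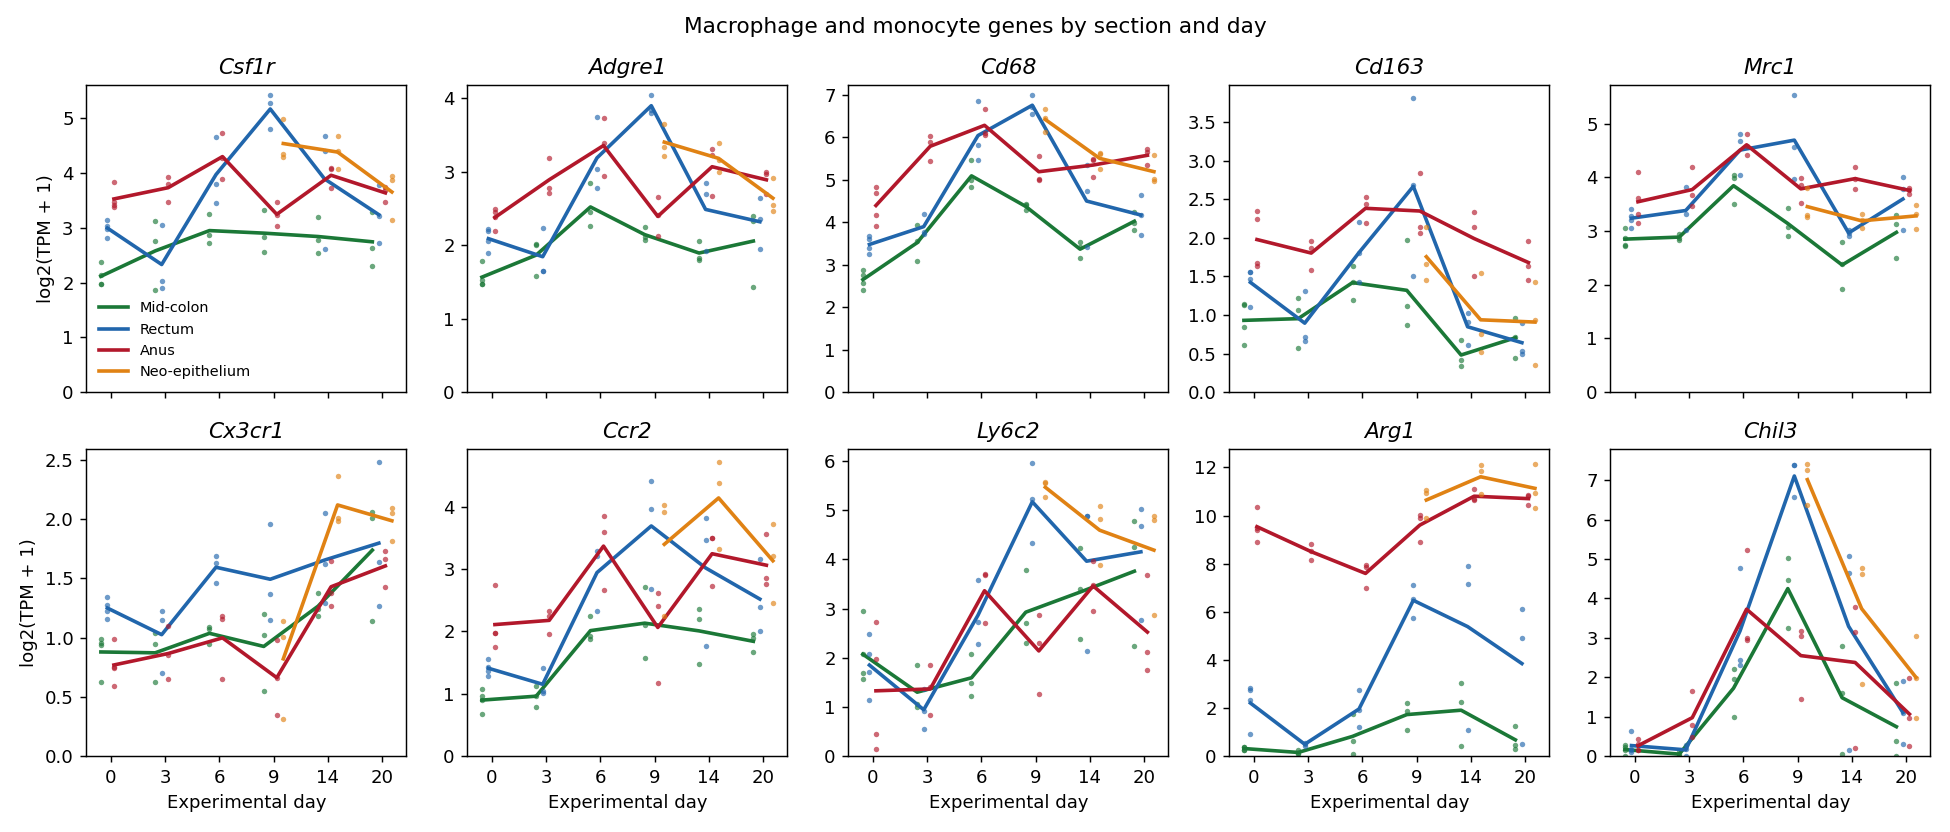
Level of each gene as log2(TPM + 1) (vertical axis, scale set per gene) by experimental day (horizontal axis, days not to scale) in mid-colon, rectum, anus and neo-epithelium. Points are single samples (4 at day 0, 3 later) and lines join group means of the log2 values. All rectal lines but that of Cx3cr1 are highest at day 9. As mean TPM, rectal Arg1 was higher at day 14 (127 TPM) than at day 9 (94.9 TPM). The Arg1 lines of anus and neo-epithelium lie far above those of rectum and mid-colon.

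Before injury, Csf1r and Cd68 were higher toward the anus. Csf1r measured 2.92, 2.92, 4.22 and 3.40 TPM in the 4 mid-colons, 6.06, 6.91, 7.24 and 7.84 TPM in the rectums and 10.1, 9.75, 9.38 and 13.4 TPM in the anal sections. The 3 sections did not overlap. Rectum exceeded mid-colon by 0.88 ± 0.14 (SE) on the log2(TPM + 1) scale (limma adjusted p = 0.0267) and anus exceeded rectum by 0.53 ± 0.16 (limma adjusted p = 0.0155). Cd68 was higher in the same order, from 5.31 ± 0.892 to 10.2 ± 1.52 to 20.7 ± 6.24 TPM (SD over 4 mice in each section). Adgre1 had means of 1.97, 3.27 and 4.21 TPM in that order, and neither step was called (limma adjusted p = 0.0772 and 0.127). Of the 8 members tested between rectum and mid-colon, Csf1r and Cd68 were the 2 called, both higher, where 1.52% of 12037 genes tested were higher. With TMM factors neither was called (limma adjusted p = 0.0692 and 0.088). Omission of mouse 1, 2 or 3 ended both calls and omission of mouse 4 that of Cd68 (limma adjusted p from 0.0624 to 0.227). With mouse as a replicate block the count stayed at 2.

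Between uninjured anus and rectum, 6 of the 9 members tested were called, where 60.3% of 13158 genes tested were called, a share near that over all genes. Arg1 had the largest difference, 797 ± 368 TPM in anus against 4.19 ± 2.36 TPM in rectum (log2 difference 7.33 ± 0.43, limma adjusted p = 5.65e-07). The lowest anal value, 477 TPM, was far above the highest rectal value, 6.07 TPM. Cd68, Csf1r, Ccr2 and Cd163 were also higher in the anus, and Cx3cr1 was lower, at 0.713 ± 0.200 against 1.38 ± 0.127 TPM (log2 difference -0.48 ± 0.14, limma adjusted p = 0.0148). The call of Cd163 ended without mouse 1, 3 or 4, that of Csf1r without mouse 2 and that of Cx3cr1 without mouse 3 (limma adjusted p from 0.0656 to 0.139).

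At day 3, while DSS was still being given, few members were called. In mid-colon none of the 6 members tested was called by limma (1 at an unadjusted p under 0.05), where 0.375% of 12008 genes tested were called. In the anus none of 8 was called (3 at an unadjusted p under 0.05), where 0.044% of 13639 genes tested were called. In the rectum 1 of 9 was called, where 5.13% of 12348 genes tested fell: Arg1 measured 6.07, 4.08, 5.70 and 0.895 TPM on day 0 and 0.352, 0.456 and 0.431 TPM on day 3. All 3 dosed mice were below all 4 uninjured ones (log2 change -1.71 ± 0.41, limma adjusted p = 0.0413). In mouse order the squamous marker sum was 106, 43.0, 85.6 and 11.8 TPM on day 0 and 12.6, 20.4 and 6.41 TPM on day 3. Only mouse 4, which also had the lowest uninjured Arg1, lay within the range of day 3. The part of squamous cells in the result was not tested. The call ended without mouse 5, 6 or 7 (limma adjusted p from 0.0738 to 0.137), and without mouse 1, 2 or 3 Arg1 did not reach the filter. Without mouse 7, Csf1r (-1.03) and Cd163 (-0.74) were called in its place (limma adjusted p = 0.00379 and 0.0433). Cd68 was called in no section at day 3, yet its values lay above all uninjured ones in each. They were 7.45 to 14.2 TPM in mid-colon, 12.2 to 17.2 TPM in rectum and 42.2 to 64.5 TPM in the anus. On day 0 they were 4.27 to 6.31, 8.45 to 11.7 and 13.9 to 27.2 TPM. Anal Arg1, at 284 to 448 TPM on day 3, lay below all uninjured values (477 TPM or more).

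By day 6, the end of dosing, the pan-macrophage genes had risen in both colonic sections. In the rectum Cd68 measured 8.45, 11.2, 11.7 and 9.42 TPM on day 0 and 55.1, 42.9 and 114 TPM on day 6. Adgre1 was at 3.15, 3.65, 2.70 and 3.57 TPM and then at 7.21, 5.85 and 12.4 TPM. Csf1r was at 6.06 to 7.84 TPM and then at 13.0, 9.98 and 24.3 TPM. For each gene every day 6 rectum was above every uninjured one, and mouse 10 was the highest. The log2 changes were 2.56 ± 0.29 for Cd68, 1.10 ± 0.22 for Adgre1 and 0.98 ± 0.25 for Csf1r (limma adjusted p = 0.00051, 0.00529 and 0.0141), and none of these calls was lost when a mouse was left out. Of the 10 members, all tested, 7 rose in the rectum at day 6 and none fell, where 11.5% of 12615 genes tested rose and 4690 fell.

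Members rose in mid-colon at day 6 as well. Cd68 measured 4.27, 5.72, 6.31 and 4.94 TPM on day 0 and 30.7, 27.2 and 43.0 TPM on day 6, without overlap (log2 change 2.44 ± 0.20, limma adjusted p = 0.000403). Of the 8 members tested, 6 rose (Cd68, Chil3, Ccr2, Mrc1, Adgre1 and Csf1r), where 4.93% of 11967 genes tested rose. Arg1 and Cx3cr1 did not reach the 1 TPM filter. The call of Adgre1 (0.95 ± 0.19) ended without mouse 10 (limma adjusted p = 0.0584), and that of Csf1r (0.84 ± 0.19) without mouse 1, 2, 8 or 10 (from 0.0511 to 0.1). The difference between the rectal and the mid-colonic response at day 6, tested as an interaction, was called for none of the 10 members, 1 of which had an unadjusted p under 0.05, and limma called 0 of 12986 genes (0% called). That does not show that the responses were alike. With mouse as a replicate block 1 member was called, Ly6c2 (1.49 ± 0.26, limma adjusted p = 0.0449).

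Other cells moved with this change. The summed level of 7 neutrophil genes (S100a8, S100a9, Ly6g, Cxcr2, Mmp9, Retnlg and Csf3r) was 606 to 737 TPM in uninjured rectum, 2057 to 6301 TPM on day 6 and 12661 to 14518 TPM on day 9. Ptprc, the leukocyte antigen CD45, went from 1.43 to 3.81 TPM on day 0 to 4.93 to 13.6 TPM and then 24.3 to 61.8 TPM. The sum of 6 T cell genes went from 2.72 to 4.82 TPM to 5.50 to 10.0 TPM and then 17.0 to 22.7 TPM. In mid-colon the neutrophil sum was 532 to 957 TPM on day 0 and 1218 to 2436 TPM on day 6, and Ptprc was 0.683 to 1.15 TPM and then 1.65 to 2.72 TPM. The sum of 4 eosinophil genes stayed at or below 2.30 TPM in every sample. The part of these cells in the members' change was not tested. How much of the neutrophil sum came from other cells, in this or any other section, was not tested either.

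At day 9, 3 days after DSS ended, the responses of rectum and mid-colon differed, as tested below. Whether that difference was larger than at day 6 was not tested. In the rectum the pan-macrophage genes were at their highest of all groups. Csf1r measured 26.9, 42.2 and 38.0 TPM, Adgre1 13.3, 12.9 and 15.5 TPM and Cd68 103, 92.4 and 127 TPM. Their log2 changes from day 0 were 2.18 ± 0.17, 1.81 ± 0.14 and 3.28 ± 0.16 (limma adjusted p = 1.88e-05, 1.96e-05 and 1.6e-06), with no overlap. Of the 10 members, 9 rose, with Cx3cr1 the exception, where 33.5% of 13140 genes tested rose. Relative to day 6, Csf1r rose further (1.20 ± 0.32, limma adjusted p = 0.0201), although not with TMM factors (0.78, limma adjusted p = 0.144) and not without mouse 8, 9, 12 or 13 (from 0.0599 to 0.0766).

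In mid-colon at day 9, Cd68 measured 18.3, 20.1 and 20.6 TPM, above all uninjured values (1.72 ± 0.18, limma adjusted p = 6.7e-05) and below all values of day 6. The fall from day 6 was 0.72 ± 0.19 on the log2 scale (limma adjusted p = 0.0182). Against day 0, 6 of 9 members tested rose, where 26.5% of 12323 genes tested rose: Chil3, Cd68, Arg1, Ccr2, Csf1r and Adgre1. The calls of Adgre1 (0.58 ± 0.18) and Csf1r (0.79 ± 0.23) rested on single mice: that of Adgre1 ended without mouse 1, 2, 12 or 13 and that of Csf1r without mouse 12 (limma adjusted p from 0.0629 to 0.0791).

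The rectal response at day 9 exceeded the mid-colonic one, in the interaction test, for 6 members, where 5.84% of 13520 genes tested had a larger rectal response. Cd68 differed by 1.55 ± 0.22, Adgre1 by 1.23 ± 0.20 and Csf1r by 1.39 ± 0.28 (limma adjusted p = 0.000886, 0.00211 and 0.00816). Chil3 (2.75 ± 0.47), Arg1 (2.86 ± 0.59) and Ly6c2 (2.46 ± 0.64) were the other 3 (limma adjusted p = 0.0027, 0.00921 and 0.0316). With a pseudocount of 0.1 the last 3 were not called (limma adjusted p = 0.0855, 0.24 and 0.0696). Without mouse 13 Csf1r and Ly6c2 were not called (0.0861 and 0.185), nor was Ly6c2 without mouse 2, 3 or 4 (0.0681 to 0.0787). With mouse as a replicate block 2 more were called, Mrc1 (1.16 ± 0.27, limma adjusted p = 0.027) and Ccr2 (1.05 ± 0.26, limma adjusted p = 0.0353).

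In the anus 6 of the 10 members had their highest mean at day 6: Csf1r, Cd68, Adgre1, Mrc1, Ccr2 and Chil3. The highest anal mean was at day 9 for Cd163, at day 14 for Ly6c2 and Arg1 and at day 20 for Cx3cr1. Cd68 measured 27.2, 13.9, 16.9 and 24.6 TPM on day 0, 100, 67.9 and 65.7 TPM on day 6 and 31.6, 30.6 and 45.7 TPM on day 9. Day 6 stood apart from days 0 and 9. Day 3, at 42.2 to 64.5 TPM, was already above all uninjured values and lay just below day 6, although it was not called. At day 6 the log2 change was 1.89 ± 0.26 (limma adjusted p = 0.00263) and at day 9 it was 0.79 ± 0.26 (limma adjusted p = 0.136). Of the 9 members tested at day 6, 5 rose (Chil3, Cd68, Ccr2, Mrc1 and Adgre1) and Arg1 fell, where 15% of 13730 genes tested were called. Csf1r (0.88) and Ly6c2 (2.50) were called too without mouse 4 (limma adjusted p = 0.0425 and 0.0179). Adgre1, Mrc1 and Ccr2 lost their calls without mouse 2, 8 or 9, Adgre1 and Ccr2 also without mouse 3, Ccr2 without mouse 1 and Mrc1 without mouse 10 (limma adjusted p from 0.0505 to 0.167).

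At day 9 only Chil3 of the 9 members tested rose in the anus, where 1.46% of 13591 genes tested rose. The anal response at day 9 was smaller than the rectal one for 6 of 10 members, where 15.6% of 14733 genes tested had a smaller anal response: on the log2 scale the anal minus the rectal change was -2.46 ± 0.26 for Csf1r, -2.48 ± 0.32 for Cd68, -1.79 ± 0.23 for Adgre1 and -2.33 ± 0.57 for Ccr2 (limma adjusted p = 2.09e-05, 9.62e-05, 0.000106 and 0.00993), with -4.20 ± 0.67 for Arg1 and -4.55 ± 0.49 for Chil3 (limma adjusted p = 0.000531 and 2.73e-05). None of these 6 was lost when a mouse was left out. With mouse as a replicate block Ly6c2 was called too (-2.51 ± 0.43, limma adjusted p = 0.00349 against 0.0523 without it). The anal sections also changed in make-up. The neutrophil sum was 528 to 1481 TPM on day 0 and 1980, 3912 and 1376 TPM on day 6, in mouse order, and Ptprc was 0.438 to 1.71 TPM and then 9.54, 12.8 and 3.43 TPM. The sum of endothelial genes was 207 to 262 TPM and then 457 to 602 TPM. In the same sections 5 colonic epithelial genes summed to 1122 to 3492 TPM on day 0, 28.1 to 81.6 TPM on day 6 and 31.1 to 62.0 TPM on day 9, and the part of these changes in the results was not tested.

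**Figure D2:**
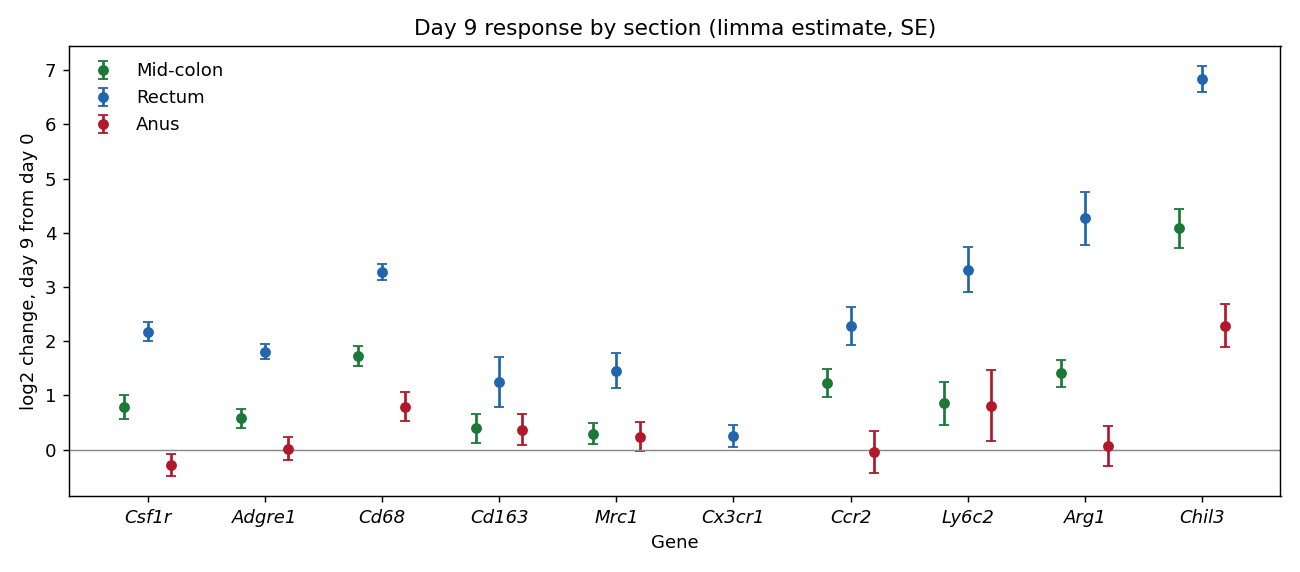
log2 change from day 0 to day 9 (vertical axis, limma estimate on log2(TPM + 1), bars show SE) for each gene (horizontal axis) in mid-colon, rectum and anus, 3 mice against 4 per section. The rectal point is the highest for each gene tested in all 3 sections, and Cx3cr1 was tested in the rectum only.

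During recovery the rectal levels spread. At day 14 Csf1r measured 5.11, 24.5 and 20.2 TPM and Cd68 9.68, 39.5 and 25.5 TPM, with mouse 14 within or below the uninjured range and mice 15 and 16 above it. At day 20 Cd68 measured 23.8, 12.0 and 16.9 TPM. Of 9 members tested, 1 rose at day 14, Ccr2, where 6.31% of 12749 genes tested rose. Without mouse 14, 8 members rose: among them Csf1r (1.54 ± 0.14, limma adjusted p = 0.000183), Cd68 (1.56 ± 0.20, limma adjusted p = 0.000902), Arg1 (5.32 ± 0.53, limma adjusted p = 0.000265) and Ly6c2 (3.03 ± 0.33, limma adjusted p = 0.000453). In mid-colon 1 of 7 members tested rose at day 14, Ccr2 (1.11 ± 0.23, limma adjusted p = 0.0354), where 2.55% of 12135 genes tested rose, and 5 were called without mouse 14. The Ccr2 call there ended without mouse 1, 2, 3, 15 or 16 (0.0881 to 0.173). For fits without mouse 14 the share of all genes called was not computed, so those counts stand without one.

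From day 9 to day 20 the rectal pan-macrophage genes fell again. The log2 changes were -2.58 ± 0.26 for Cd68, -1.93 ± 0.31 for Csf1r and -1.58 ± 0.25 for Adgre1 (limma adjusted p = 0.00206, 0.00776 and 0.00719), and leaving out any mouse kept each call. With Chil3 and Cd163 they were the 5 of 10 members that fell, where 14.8% of 13097 genes tested fell, and Cd163 was lost without mouse 11, 13, 17, 18 or 19 (0.0524 to 0.109). At day 20 none of the 3 was called against day 0 in the rectum, although Cd68 was with TMM factors (0.70, limma adjusted p = 0.0374) and with protein-coding transcripts only (0.89, limma adjusted p = 0.0296). In mid-colon Cd68 was, at 14.9, 13.2 and 18.0 TPM, all above the uninjured 4.27 to 6.31 TPM (1.37 ± 0.21, limma adjusted p = 0.0182), the 1 of 7 members tested that rose, where 0.677% of 12116 genes tested rose. Without mouse 19, Ccr2, Cx3cr1 and Ly6c2 were called as well, and without mouse 4 Ccr2 was (limma adjusted p from 0.0104 to 0.0427). The Cd68 call ended with protein-coding transcripts only (0.79, limma adjusted p = 0.217) and without mouse 1, 2 or 17 (0.0566 to 0.0707). In the anus none of the 9 members tested was called at day 14 or day 20 by limma (6 and 5 at an unadjusted p under 0.05), where 4.27% of 13763 and 1.46% of 13747 genes tested were called. At day 14 Arg1 was called without mouse 1 (1.55, limma adjusted p = 0.0156) and Ccr2 and Ly6c2 without mouse 4 (1.34 and 2.60, limma adjusted p = 0.0395 and 0.0443). At day 20 Cd68 and Arg1 were called without mouse 1 (1.32 and 1.45, limma adjusted p = 0.0438 and 0.0321), and with protein-coding transcripts only Cd68 was called on both days (0.028 and 0.0422).

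**Figure D3:**
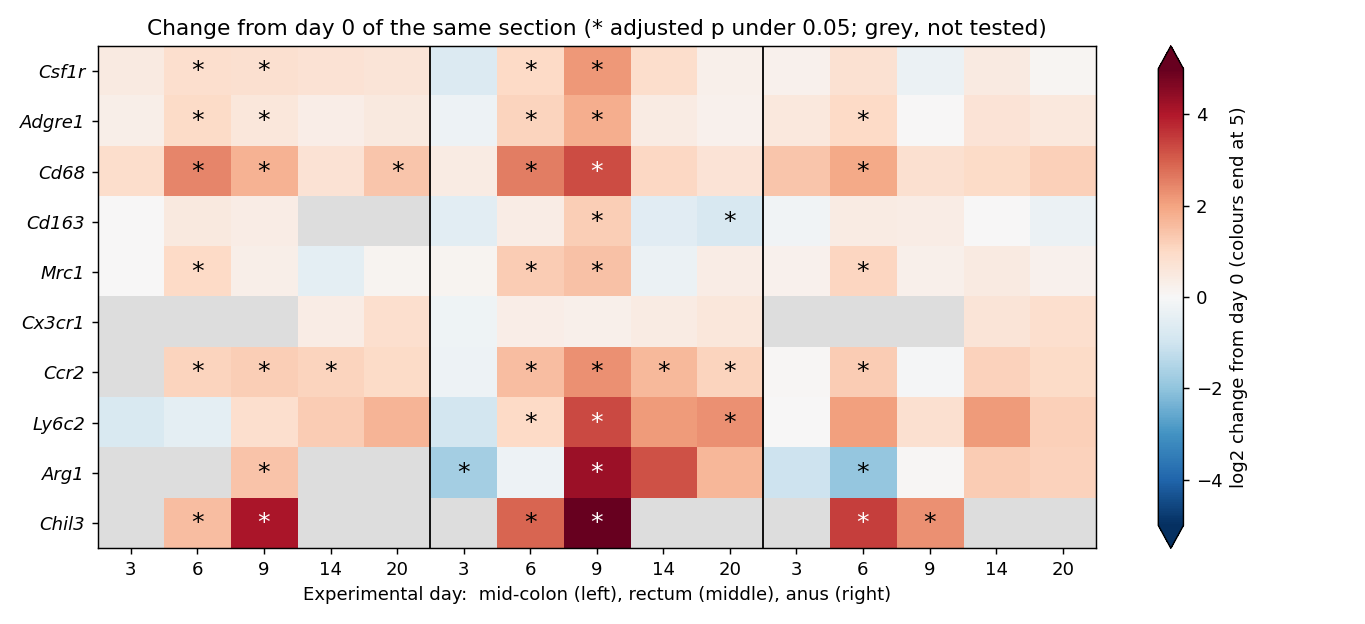
Change of each gene (rows) from day 0 of the same section to each later day (columns), on the log2(TPM + 1) scale, red higher and blue lower, with colours ending at 5 in either direction. Stars mark a limma adjusted p under 0.05 and grey cells were below the 1 TPM filter. Stars gather at day 6 in all 3 sections and at day 9 in rectum and mid-colon, where 9 and 6 members were called.

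The genes of mature resident macrophages did not share 1 course. Cd163 measured 1.15, 1.95, 1.95 and 1.76 TPM in uninjured rectum, 13.0, 1.84 and 5.45 TPM on day 9, 0.522, 0.875 and 1.04 TPM on day 14 and 0.447, 0.409 and 0.859 TPM on day 20. Mouse 11 alone held the highest value at day 9 and mouse 12 lay within the uninjured range. All 6 rectums of days 14 and 20 lay below all 4 uninjured ones. The rise at day 9 (1.25 ± 0.45, limma adjusted p = 0.0451) ended without mouse 11 (0.68, limma adjusted p = 0.113), without 5 other mice, and with TMM factors (1.10, limma adjusted p = 0.0541).

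At day 20 Cd163 was below day 0 in the rectum by a log2 change of -0.78 ± 0.19 (limma adjusted p = 0.0472). At day 14 the change was -0.58 ± 0.18 (limma adjusted p = 0.0667). The day 20 call ended without any of mice 1, 2, 3, 4, 17 and 18 (limma adjusted p from 0.0888 to 0.125) and with a pseudocount of 0.1 (0.0524). It was 1 of 3 members called in the rectum at day 20, with Ccr2 and Ly6c2 higher, where 7.68% of 12677 genes tested were called. Mid-colon Cd163 ran from 0.533 to 1.20 TPM on day 0 and from 0.268 to 0.604 TPM on day 14, and was below the filter there.

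Mrc1 measured 7.33, 8.25, 9.65 and 8.75 TPM in uninjured rectum, 27.1, 15.4 and 24.6 TPM on day 6 and 45.7, 14.7 and 22.8 TPM on day 9. All injured rectums of both days were above the uninjured ones. The log2 changes were 1.27 ± 0.19 and 1.46 ± 0.32 (limma adjusted p = 0.0016 and 0.00456). Mid-colon and anus rose at day 6 as well, by 1.00 ± 0.18 and 1.06 ± 0.25 (limma adjusted p = 0.00952 and 0.0234). With the protein-coding transcript alone, rectal Mrc1 was 5.48 ± 0.534 TPM on day 0, 8.97 ± 3.57 TPM on day 6 and 17.6 ± 8.02 TPM on day 9. On that measure the calls at day 6 ended in rectum (0.55, limma adjusted p = 0.0835), mid-colon (0.70, limma adjusted p = 0.0809) and anus (0.52, limma adjusted p = 0.278), and in the anus the call also ended without mouse 2, 8, 9 or 10. The same measure added calls: higher in mid-colon at day 9 (0.60, limma adjusted p = 0.0488) and lower in rectum from day 9 to day 20 (-1.48, limma adjusted p = 0.0287). It also added a smaller anal than rectal response at day 9 (-1.40, limma adjusted p = 0.0216), which TMM factors gave too (-1.13, limma adjusted p = 0.0408).

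Cx3cr1 was low throughout, between 0.241 and 4.59 TPM over the 66 samples. In the rectum it measured 1.34, 1.54, 1.42 and 1.23 TPM on day 0 and 1.21, 1.59 and 2.89 TPM on day 9, groups that overlapped. The log2 change was 0.24 ± 0.20 (limma adjusted p = 0.346), beside 2.18 for Csf1r in the same samples. At day 20 its values were 4.59, 2.11 and 1.41 TPM in rectum and 3.17, 3.04 and 1.20 TPM in mid-colon, where mouse 19 was the low one in both. No comparison with day 0 called Cx3cr1 in the fit as described, but 3 did under another setting. In the rectum it was called at day 6 with TMM factors (0.52 ± 0.13, limma adjusted p = 0.0155) and at day 14 without mouse 14 (0.59 ± 0.17, limma adjusted p = 0.027). In mid-colon it was called at day 20 without mouse 19 (1.16 ± 0.24, limma adjusted p = 0.0275).

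Set against Csf1r in the same sample, these genes described different paths, given here with no test. The ratio of Cx3cr1 to Csf1r in the rectum was 0.199 ± 0.030 before injury (SD, n = 4), 0.0529 ± 0.020 on day 9 and 0.288 ± 0.060 on day 20 (n = 3 each). The ratio of Cd163 to Csf1r in the rectum was 0.242 ± 0.043 at day 0, 0.0632 ± 0.035 at day 14 and 0.0793 ± 0.065 at day 20. Mid-colon showed a similar order for Cd163, with 0.272 ± 0.070, 0.0716 ± 0.048 and 0.115 ± 0.058. The ratio of Adgre1 to Csf1r ran from 0.356 to 0.706 over the 21 group means. The ratio of Cd68 to Csf1r was 1.46 ± 0.20 in uninjured rectum and 4.41 ± 0.23 at day 6, and 1.59 ± 0.25 and 4.91 ± 0.090 in mid-colon.

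**Figure D4:**
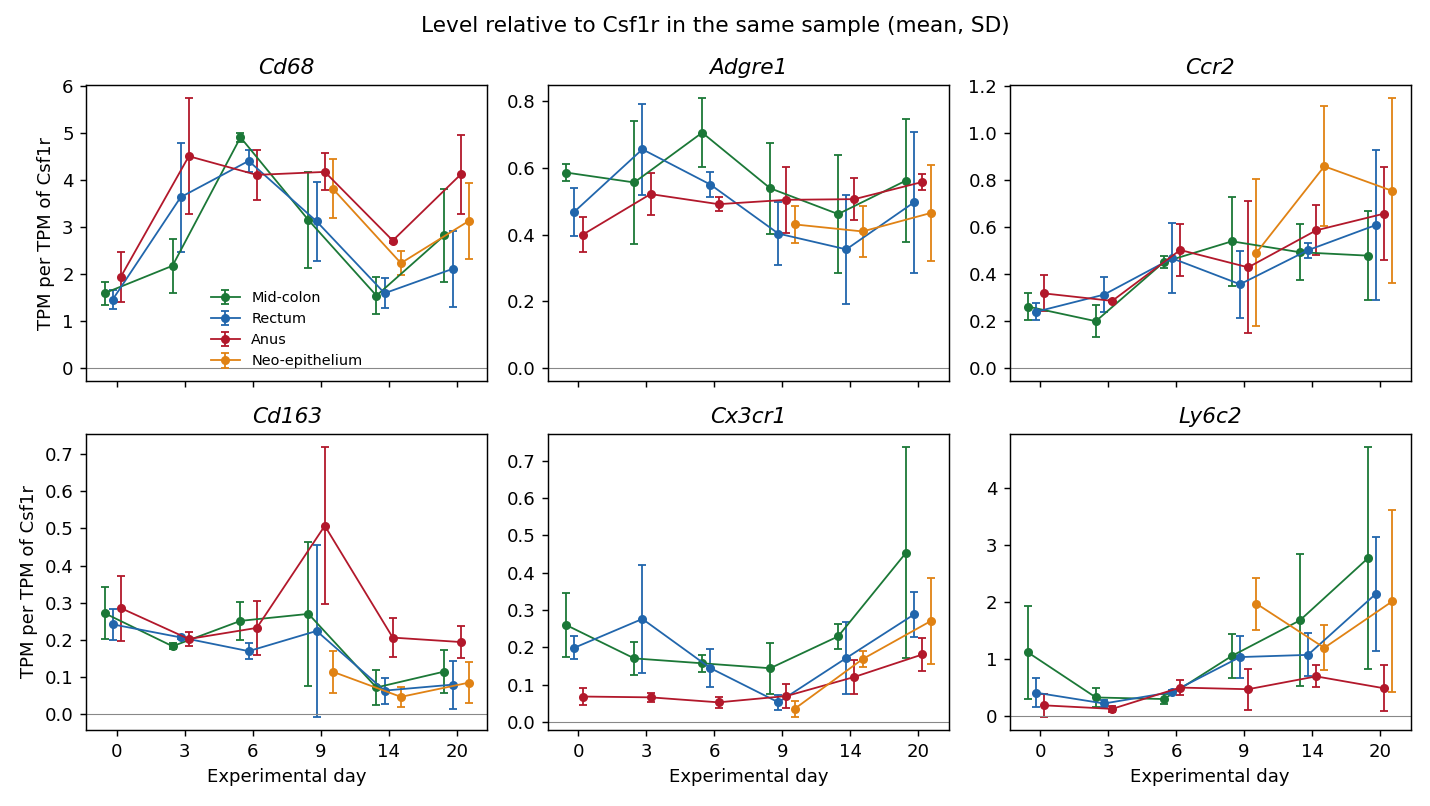
TPM of 6 genes divided by the TPM of Csf1r in the same sample (vertical axis, mean and SD) by experimental day (horizontal axis) in each section, 4 samples at day 0 and 3 later. The group means of Adgre1 run from 0.356 to 0.706, Cd68 in rectum and mid-colon is highest at day 6, Cd163 is low at days 14 and 20 in rectum and mid-colon, and Cx3cr1 in the rectum is lowest at day 9.

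Ccr2 was called higher in the rectum at each day from 6 to 20. In the rectum it measured 1.56, 1.70, 1.93 and 1.45 TPM on day 0, 8.28, 4.00 and 8.78 TPM on day 6, 5.43, 20.4 and 14.6 TPM on day 9, 2.40, 13.1 and 10.0 TPM on day 14 and 4.24, 7.91 and 3.02 TPM on day 20. Every sample from day 6 on was above every uninjured one. The log2 changes were 1.53 ± 0.23, 2.28 ± 0.36, 1.61 ± 0.44 and 1.11 ± 0.26 (limma adjusted p = 0.00168, 0.000759, 0.0462 and 0.0425). The calls at days 6 and 9 held when any mouse was left out. The call at day 14 ended without any of mice 1, 2, 3, 4, 15 and 16 (0.0945 to 0.171), and that at day 20 without any of mice 1, 2, 3, 4, 17 and 18 (0.0698 to 0.121). In mid-colon Ccr2 rose by 1.11 ± 0.17 at day 6 and 1.23 ± 0.26 at day 9 (limma adjusted p = 0.00494 and 0.00341). It was 0.591 to 1.11 TPM there on day 0 and 2.18 TPM or more from day 6 on in all but mouse 11 of day 9 (1.98 TPM) and mouse 14 (1.78 TPM).

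Ly6c2 followed a different timing, with the reservation about Ly6c1 reads given above. In the rectum it measured 4.60, 1.21, 2.25 and 3.22 TPM on day 0, 5.67, 3.83 and 11.1 TPM on day 6 and 19.0, 60.9 and 36.7 TPM on day 9. Day 6 overlapped day 0, and day 9 stood apart from both. The change from day 0 was 1.01 ± 0.37 at day 6 (limma adjusted p = 0.0493) and 3.32 ± 0.41 at day 9 (limma adjusted p = 0.000213). The day 6 call ended without mouse 2, 3, 4, 8 or 10 (0.0671 to 0.173), with protein-coding transcripts only (0.0829) and with a pseudocount of 0.1 (0.053). From day 6 to day 9 Ly6c2 rose by 2.30 ± 0.46 (limma adjusted p = 0.00582). Arg1, Chil3 and Csf1r also rose over that interval, 4 of 10 members, where 32.1% of 12831 genes tested rose. With TMM factors the genes called higher over all went from 4115 to 2174, or from 84.6% to 50.8% of calls, and the median log2 change of all genes from 0.37 to -0.01.

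At day 20 rectal Ly6c2 was 31.3, 24.6 and 5.82 TPM, all above day 0 (2.30 ± 0.54, limma adjusted p = 0.0418). That call ended without any of mice 1, 2, 3, 4, 17 and 18 (0.076 to 0.113). B cell genes summed to 1.61 to 31.5 TPM in the rectum at day 0 and 16.6 to 158 TPM on day 20, and T cell genes to 2.72 to 4.82 and 4.34 to 26.3 TPM. In mid-colon Ly6c2 measured 1.32, 1.82 and 3.21 TPM on day 6, within the uninjured range of 1.97 to 6.75 TPM or below it, and 26.6, 18.1 and 3.73 TPM on day 20. Between days 6 and 9 it rose there by 1.33 ± 0.38 (limma adjusted p = 0.0239), 1 of 4 of 10 members called over that interval, where 40.5% of 12131 genes tested were called. The call ended without mouse 8, 9 or 12 (0.0509 to 0.0816). Mrc1 fell over it by 0.71 ± 0.22 on the log2 scale (limma adjusted p = 0.0311), a call lost without mouse 8, 10, 12 or 13 (0.0899 to 0.0983) and with the protein-coding transcript alone (-0.11, limma adjusted p = 0.732). Mean Ly6c1 over mean Ly6c2 in mid-colon was 15.7 at day 0, 392 at day 6 and 6.07 at day 20. Ptprc in mid-colon was 0.683 to 1.15 TPM on day 0 and 2.07 to 15.6 TPM on day 20, and B cell genes summed to 2.04 to 3.61 and 6.02 to 123 TPM. The part of these cells was not tested.

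Chil3 had the largest change from day 0 of any member. In the rectum it measured 0.0790, 0.566, 0.112 and 0.127 TPM on day 0, 4.01, 4.44 and 26.1 TPM on day 6, 166, 165 and 93.3 TPM on day 9, 0.119, 24.0 and 32.6 TPM on day 14 and 1.13, 2.77 and 0.251 TPM on day 20. Mean level at day 9 was 141 ± 41.5 TPM, the highest of the 21 groups, and mouse 14 at day 14 was back within the uninjured range. The log2 change at day 9 was 6.83 ± 0.24 (limma adjusted p = 3.23e-07). Mid-colon rose to 21.2, 31.8 and 8.45 TPM on day 9 (4.08 ± 0.35, limma adjusted p = 2.58e-05) from 0 to 0.217 TPM. In the anus Chil3 had its highest mean at day 6, at 6.97, 36.8 and 6.69 TPM (3.46 ± 0.51, limma adjusted p = 0.00339). Mouse 9, the highest, also had the highest neutrophil sum of that day, 3912 TPM. At day 9 it was 1.72, 7.97 and 7.24 TPM there (2.29 ± 0.40, limma adjusted p = 0.0129), a call that ended without mouse 12 or 13 (0.0655 and 0.068).

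From day 9 to day 20 Chil3 fell in the rectum by 6.00 ± 0.42 and in mid-colon by 3.50 ± 0.56 on the log2 scale (limma adjusted p = 0.000828 and 0.00399), in mid-colon the only 1 of 9 members called, where 20.6% of 12308 genes tested were called. There Arg1 was called lower without mouse 13 or 17 (-1.37 and -1.33, limma adjusted p = 0.0475 and 0.0438) and Cx3cr1 and Ly6c2 higher without mouse 19 (1.11 and 1.59, limma adjusted p = 0.0389 and 0.0404). The neutrophil marker sum took a like course, at 12661 to 14518 TPM in the rectum at day 9 and 517 to 1366 TPM on day 20. In mid-colon that sum was 1463 to 3272 TPM and 338 to 620 TPM. Among 11840 genes, the 3 whose mean log2 level over the 21 groups correlated best with Chil3 were Gm5483, Fpr1 and Gm14548. Fpr1 is a receptor for formylated peptides carried by neutrophils and monocytes. The part of neutrophils in the Chil3 values was not tested.

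Arg1 depended on section more than any other member. It stayed at or below 7.27 TPM in all 19 mid-colons and between 125 and 2173 TPM in all 19 anal sections. In the rectum it measured 2.80, 1.33 and 5.69 TPM on day 6, 92.8, 139 and 52.8 TPM on day 9, 1.13, 142 and 239 TPM on day 14 and 29.4, 68.6 and 0.415 TPM on day 20. All 3 rectums of day 9 were above all earlier ones (4.27 ± 0.49 from day 0, limma adjusted p = 0.000129). At days 14 and 20, 2 of 3 mice stayed high, while mouse 14 lay within the uninjured range and mouse 19 below it. Those days were not called (limma adjusted p = 0.175 and 0.393), but day 20 was without mouse 19 (3.32 ± 0.56, limma adjusted p = 0.00708).

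The squamous marker sum in the same rectums was 576, 92.2 and 77.9 TPM on day 9, 24.4, 761 and 459 TPM on day 14 and 421, 265 and 7.56 TPM on day 20, in mouse order. The 2 mice with low Arg1 were the ones with the low sums. Within day 9 the order differed, since mouse 11 had the highest sum and mouse 12 the highest Arg1. The 3 genes most like Arg1 over the 21 group means were Prss27, Ppbp and Alox12 (Pearson r 0.987, 0.987 and 0.986, over means that share the same libraries). The part of squamous cells in rectal Arg1 was not tested. In the anus Arg1 fell at day 6, from 1327, 717, 666 and 477 TPM to 247, 231 and 125 TPM (-1.94 ± 0.36, limma adjusted p = 0.00918), and the call held without any mouse. The squamous sum there was 8694 to 14463 TPM on day 0 and 13666 to 18132 TPM on day 6.

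**Figure D5:**
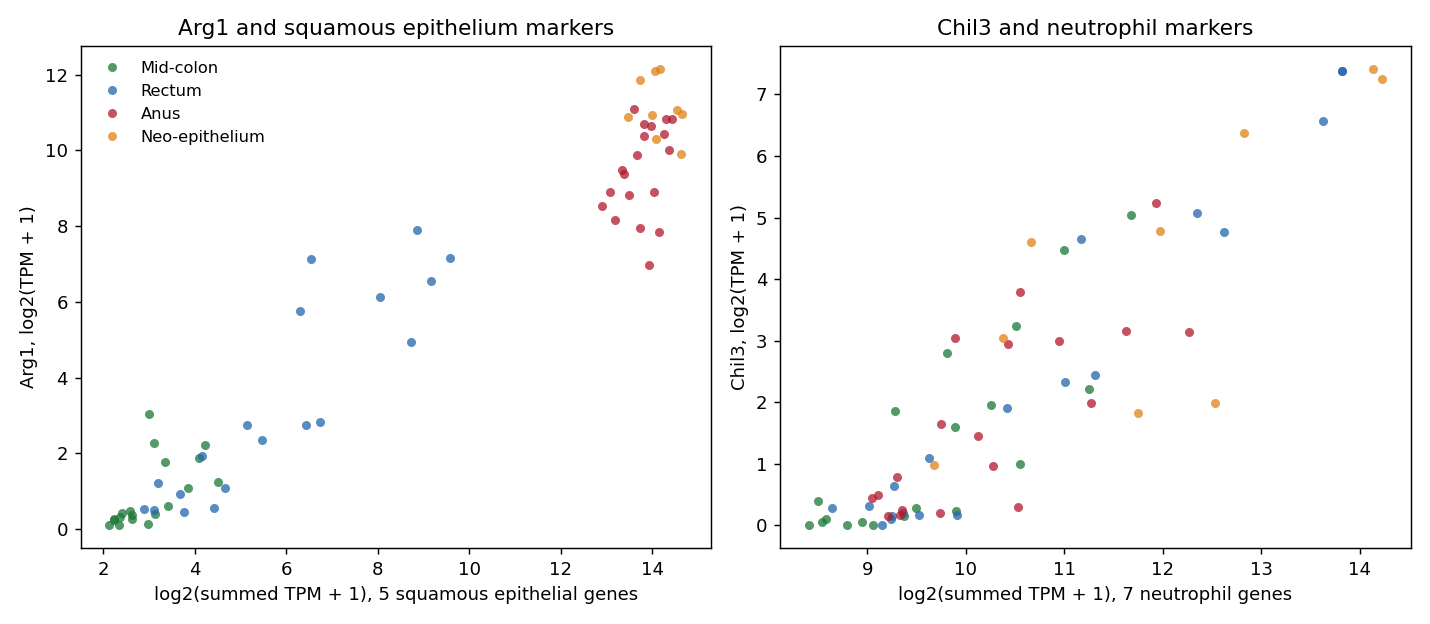
Left, Arg1 against the summed TPM of 5 squamous epithelial genes, and right, Chil3 against the summed TPM of 7 neutrophil genes, each axis as log2 of (value + 1). Each point is 1 of the 66 samples, coloured by section. In the left plot anal and neo-epithelial samples lie at the right, with squamous sums of 7676 TPM or more, and rectal samples (blue) spread from the range of the mid-colons up to a sum of 761 TPM, and the day 9 rectums and neo-epithelia are at the top right of the right plot.

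The neo-epithelium, a squamous tissue that appears in the distal colon after injury and was sampled at days 9, 14 and 20, was compared with the rectum of the same mice. Of the 10 members 1 was called, Arg1, where 42% of 14492 genes tested were called. Arg1 was higher in the neo-epithelium of 9 of 9 mice, at 1696 ± 642 TPM on day 9, 3318 ± 1282 TPM on day 14 and 2592 ± 1745 TPM on day 20 (SD, n = 3 each; log2 difference 5.89 ± 0.87, limma adjusted p = 4.44e-05). For Csf1r the difference was 0.09 ± 0.27 and for Ccr2 0.48 ± 0.37 (limma adjusted p = 0.815 and 0.316), which does not show that the tissues are alike. For Cd68 it was 0.56 ± 0.25 (limma adjusted p = 0.0866), and it was called with TMM factors (0.59, limma adjusted p = 0.0301) and with protein-coding transcripts only (0.63, limma adjusted p = 0.0346). With the latter Mrc1 was called too, lower in neo-epithelium (-0.64, limma adjusted p = 0.0452). At day 9 Csf1r, Cd68, Adgre1, Cd163, Mrc1, Cx3cr1 and Ccr2 were lower in the neo-epithelium than in the rectum of all 3 mice. At day 14 Cd68, Adgre1, Mrc1 and Ccr2 were higher in all 3, and this turn was not tested.

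Against the anus of the same mice, 6 members were higher in neo-epithelium (Chil3, Ly6c2, Ccr2, Arg1, Csf1r and Cx3cr1) and Cd163 and Mrc1 were lower, 8 of 10, where 58.5% of 14861 genes tested were called. Ly6c2 was higher in 9 of 9 mice, at 29.6 ± 13.4 against 6.74 ± 4.58 TPM (2.04 ± 0.39, limma adjusted p = 0.000307). Cd163 was lower in 9 of 9 mice, at 1.47 ± 1.00 against 3.20 ± 1.37 TPM (-0.81 ± 0.19, limma adjusted p = 0.00166). Mrc1 (-0.53 ± 0.11, limma adjusted p = 0.000593) was lower in 8 of 9 mice, but with the protein-coding transcript alone the difference was -0.02 (limma adjusted p = 0.926). Ccr2 lost its call without mouse 12, 13, 15, 16 or 17, Arg1 without mouse 12 or 15, and Cx3cr1 without mouse 16 (limma adjusted p from 0.0506 to 0.0949). Ccr2 was also not called with TMM factors (0.65, limma adjusted p = 0.079), nor Cx3cr1 with a pseudocount of 0.1 (limma adjusted p = 0.0581), while Cd68 was called higher with protein-coding transcripts only (0.49, limma adjusted p = 0.0328). By day, the mean difference within mice was 1.29, 0.42 and 0.02 for Csf1r and 1.33, 0.89 and 0.07 for Ccr2 on the log2 scale at days 9, 14 and 20, and its change with day was not tested. Skeletal muscle genes summed to 0.499 to 8.96 TPM in the neo-epithelia and 1251 to 5115 TPM in the anal sections of those days, and their part in these differences was not tested.

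Between day 9 and day 20 the neo-epithelium went from high Chil3 to higher Cx3cr1. Chil3 measured 152, 81.5 and 170 TPM on day 9 and 0.966, 2.95 and 7.24 TPM on day 20 (-5.01 ± 0.54, limma adjusted p = 0.00329). Cx3cr1 measured 0.241, 1.01 and 1.21 TPM on day 9, 3.03, 2.95 and 4.15 TPM on day 14 and 3.14, 2.52 and 3.27 TPM on day 20. Day 9 did not overlap the later days, and the rise to day 20 was 1.16 ± 0.26 (limma adjusted p = 0.0205). Cd68 (-1.23 ± 0.22) and Adgre1 (-0.76 ± 0.20) fell (limma adjusted p = 0.0117 and 0.0337), so that 4 of 10 members were called, where 26.2% of 13186 genes tested were called. The calls ended without mouse 12, 13, 17 or 19 for Cx3cr1, without mouse 11, 12, 13, 17 or 18 for Adgre1 and without mouse 13 for Cd68 (0.053 to 0.134). The neutrophil sum was 7266 to 19164 TPM on day 9 and 820 to 5934 TPM on day 20.

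A list of 46 further genes of the monocyte and macrophage pathway described the same groups. In the rectum at day 9, 35 of the 44 tested rose and 4 fell, where 33.5% of 13140 genes tested rose and 2624 fell. The median log2 change of the 44 was 2.65, against 0.13 over all genes. At day 6, 30 of 41 rose and 2 fell in the rectum, 21 of 37 rose and 1 fell in mid-colon, and 22 of 40 rose and 3 fell in the anus. Over all genes tested, 11.5% rose in the rectum and 4.93% in mid-colon, and 15% were called in the anus. Genes that fell at day 6 numbered 4690 of 12615 tested in the rectum and 1195 of 11967 in mid-colon. With TMM factors these counts were 2200 and 927. At day 9 in mid-colon 27 of 41 rose and 4 fell, where 26.5% of 12323 genes tested rose and 2089 fell. At day 20, 9 of 37 rose and 2 fell in the rectum, where 7.68% of all genes were called, a count that depended on mouse 19: 23 rose and 4 fell without it. It also fell to 1 of any direction without mouse 1, 2 or 3, to 2 without mouse 18, and to 6 without mouse 4 or 17. For fits without a mouse the share over all genes was not computed.

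Of the 5 chemokine genes on that list, 4 rose in the rectum at day 9 and Cx3cl1 fell, where 33.5% of 13140 genes tested rose and 2624 fell. Ccl2, Ccl7 and Ccl12, which encode ligands of CCR2, rose by 4.19, 3.88 and 2.91 on the log2 scale, to means of 32.7, 39.5 and 20.0 TPM. Ccl8, whose mouse product is known as an agonist of CCR8, rose by 5.60 to 517 TPM. Cx3cl1, which encodes fractalkine, fell by 1.50. In the anus at day 6 Ccl2 rose by 3.50 and Cx3cl1 fell by 2.43, and in the neo-epithelium from day 9 to day 20 Ccl2 fell by 3.21 and Cx3cl1 rose by 2.36. All of these were called (limma adjusted p under 0.05).

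Of the growth factor axis, Csf1 rose in the rectum at day 9 (1.46) and the receptor chains Csf2ra (2.28) and Csf2rb (4.94) rose, while Il34 was not called (0.16). Among lineage transcription factors Spi1, which encodes PU.1, rose by 3.99 to a mean of 65.8 TPM, with Cebpb (3.56) and Irf8 (1.35), while Maf was not called (0.39). Complement genes made by mature macrophages rose: C1qa reached 197 TPM (2.57). Mertk, a receptor for the uptake of dying cells, fell in the rectum at day 9 (-1.78) and day 6 (-1.40). It also fell in mid-colon on both days (-1.25 at day 6 and -1.75 at day 9). Over all genes tested, 2624 of 13140 fell in the rectum at day 9 and 4690 of 12615 at day 6. In mid-colon 1195 of 11967 fell at day 6 and 2089 of 12323 at day 9. Among inflammatory genes Il1b rose by 9.54 to 1174 TPM, Nos2 by 6.58 and Tnf by 5.24. Il1b and Nos2 are also made by neutrophils and epithelium. In the same rectums the neutrophil marker sum was 606 to 737 TPM on day 0 and 12661 to 14518 TPM on day 9. The cell source of the genes named in this paragraph, Spi1, Cebpb, Csf2ra and Csf2rb included, was not tested.

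Of the 11 listed genes of alternative activation and tissue repair, 9 rose and 2 fell in the rectum at day 9. Over all 13140 genes tested there, 33.5% rose and 2624 genes fell. Retnla fell by 2.23 and Mgl2 by 0.65 on the log2 scale, while Clec10a (2.25), Il10 (2.87), Trem2 (2.06), Gpnmb (2.70), Spp1 (4.46), Msr1 (3.27) and Il4ra (3.84) rose. Retnla was still lower at day 20 (-3.48). In mid-colon at day 9 it fell by 2.28 and in the anus at day 6 by 2.45. In the neo-epithelium it rose from day 9 to day 20 by 1.57. Resistin-like alpha, its product, is made by macrophages and by epithelial cells, and its source was not tested.

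The interaction tests were also read for these 46 genes. At day 9 the rectal response exceeded the mid-colonic one for 29 of 44 and was smaller for none, where 5.84% of all genes had a larger rectal response. That was a count of 17 with a pseudocount of 0.1 and of 15 without mouse 13. The anal response was smaller than the rectal one for 35 of 44 and larger for none, where 15.6% of all genes had a smaller anal response.

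The genes most like each member in pattern, by Pearson r of mean log2(TPM + 1) over the 21 groups among 11840 genes, are given as a description, since the means share libraries and tissue make-up. For Csf1r they were Arl5c, Tm6sf1 and Laptm5 (0.970, 0.964 and 0.962), and for Adgre1 Clec4a3, C1qc and Plekho1 (0.967, 0.965 and 0.965). For Cd68 they were C1qc, Fcgr2b and Adgre1, for Cd163 F13a1, Tgfbr3 and Gfpt2, and for Ccr2 Cxcr4, Srgn and Ifitm1. For Ly6c2 the nearest was Ptprc (0.947). Mrc1 had the loosest match (Npl, 0.904). With Csf1r itself the r was 0.961 for Adgre1, 0.914 for Ccr2 and 0.884 for Cd68, but 0.605 for Cd163 and 0.632 for Mrc1.

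The promoters were read for GAGGAA, the core of the site bound by PU.1, on both strands. RefSeq promoter windows (GRCm38.p6, 250 bases before to 50 after the start) were found for 7 members, and 3 of them held the letters (Mrc1, Cd68 and Ly6c2), where 28.3% of 32851 windows of that length did. A match is letters only, and nothing follows for members without one. The 250 bases before the start of Cd68 (chr11:69666171-69666420, minus strand) and Mrc1 (chr2:14229164-14229413, plus strand) are shown, with GAGGAA or its reverse complement TTCCTC in capitals.
Cd68: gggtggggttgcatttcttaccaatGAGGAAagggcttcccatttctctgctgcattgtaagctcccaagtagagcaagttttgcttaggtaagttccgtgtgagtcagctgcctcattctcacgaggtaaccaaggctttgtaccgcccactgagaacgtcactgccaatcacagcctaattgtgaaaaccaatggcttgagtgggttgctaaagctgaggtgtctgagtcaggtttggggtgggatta
Mrc1: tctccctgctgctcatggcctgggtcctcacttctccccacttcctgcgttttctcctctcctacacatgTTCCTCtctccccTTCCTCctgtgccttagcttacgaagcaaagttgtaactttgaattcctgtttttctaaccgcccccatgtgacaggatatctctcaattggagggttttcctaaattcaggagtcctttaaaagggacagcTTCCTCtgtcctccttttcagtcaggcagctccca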

How the data were processed

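Per the labels' protocols, a stranded mRNA kit was used and reads were single-end, 75 bases long. CASAVA, kallisto and the build mm10 are named in the submitters' processing notes; versions and roles are not given in the sources used here. The deposited values are transcripts per 1000000 (TPM) per transcript. The deposited table has 126860 rows, of which 89516 hold values; 1318 repeat rows were dropped, which brought each column sum from at least 1027330.2 to 1000000 TPM. TPM was then summed per gene.

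Genes that reached 1 TPM in at least the number of samples of the smaller group entered a limma fit of log2(TPM + 1), with limma 3.58.1 (R 4.3.3, empirical Bayes with trend), and p-values were adjusted over all genes tested (Benjamini-Hochberg, two-sided). A gene was called at an adjusted p under 0.05. Differences and SE are on that scale, which understates the change of low genes. Depth is unknown, so no counting interval can be given. The fits were tested on simulated data. The members, the 46 further genes and the marker lists were chosen with earlier results of these data known. Mice are the replicates, and for changes between days within a section the p-values measure the spread between them. In comparisons between sections and in the interaction tests, sections of the same mouse entered the reported fits as separate samples. Those p-values do not take the pairing into account, except where mouse as a replicate block is named. Sections from 1 mouse share its number in the labels, and their deviations had mean correlations from 0.0516 to 0.258. Genes alike in pattern were the 3 with the highest Pearson r, among genes with a group mean of at least 5 TPM. Alternatives were a pseudocount of 0.1, no filter, a filter of 5 TPM, TMM factors, mouse as a replicate block, each mouse left out and, chosen after seeing the data, protein-coding transcripts only.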

Additional observations from a re-analysis of the deposited data

Results flagged for a closer look

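The rectal response at day 9 differed from the mid-colonic one in the interaction test for 6 genes, all with the larger change in the rectum on the log2(TPM + 1) scale: Adgre1 by 1.23, Csf1r by 1.39, Cd68 by 1.55, Ly6c2 by 2.46, Arg1 by 2.86 and Chil3 by 2.75. The anal response differed from the rectal one for 6 genes, with anal minus rectal differences of -1.79 for Adgre1, -2.46 for Csf1r, -2.48 for Cd68, -2.33 for Ccr2, -4.20 for Arg1 and -4.55 for Chil3. Both sets share the rectal samples of days 0 and 9. Their tests stand with the day 9 results above.

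Among the uninjured groups of 4 mice, 3 single values stood far from the other 3 by Dixon's ratio of gap to range, above its 95% critical value. The ratios were taken on log2(TPM + 1), so they differ from those of the TPM values given. Mid-colon Adgre1 of mouse 3 was high, at 2.45 TPM with the next at 1.87 TPM (ratio 0.834). Mid-colon Cx3cr1 of mouse 4 was low, at 0.546 TPM with the next at 0.920 TPM (ratio 0.864). Rectal Chil3 of mouse 2 was high, at 0.566 TPM with the next at 0.127 TPM (ratio 0.882). Of 30 groups examined, chance alone flags about 1 in 20.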

How the results depend on the processing

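No member that was called changed direction under any alternative run. Of called values, 5 of 89 lost the call with TMM factors, 6 of 89 with a pseudocount of 0.1, 21 of 89 with no filter, 8 of 88 with protein-coding transcripts only (chosen after seeing the data), 0 of 64 with a 5 TPM filter and 0 of 29 with mouse as a replicate block, against 122 of 596 when 1 mouse was left out. Of uncalled values, 4 of 38 gained a call with the replicate block, 8 of 155 with TMM factors, 9 of 155 with protein-coding transcripts only and 39 of 1049 with 1 mouse left out. Read depth is unknown, and members near 1 TPM (Cx3cr1, Cd163, Chil3 at day 0) enter or leave with the filter.

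Counts of members called that moved by over 1.5 times were these. With the 5 TPM filter, which removes low members, mid-colon went from 6 to 3 at day 6, from 6 to 2 at day 9 and from 1 to 0 at day 14, rectum from 1 to 0 at days 3 and 14, from 7 to 4 at day 6 and from 3 to 1 at day 20, anus at day 9 from 1 to 0, and uninjured anus against rectum from 6 to 3. With no filter, which adds genes to the adjustment, the count became 0 for mid-colon at days 14 and 20, for rectum at days 3, 14 and 20 and for uninjured rectum against mid-colon, and 2 (from 4) for mid-colon day 9 against day 6. With TMM factors it became 3 (from 1) and 2 (from 1) for mid-colon at days 14 and 20, 0 (from 2) for uninjured rectum against mid-colon, and 2 (from 1) for neo-epithelium against rectum. With protein-coding transcripts only it became 0 for mid-colon at day 20, 1 (from 0) for anus at days 14 and 20, 1 (from 2) for uninjured rectum against mid-colon and 3 (from 1) for neo-epithelium against rectum. A pseudocount of 0.1 took the day 9 difference between rectum and mid-colon from 6 to 3, and the replicate block took that of day 6 from 0 to 1. The block moved no other count by that much.

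For the 46 further genes, the 5 TPM filter gave 11 (from 22) and 17 (from 31) in mid-colon at days 6 and 9 and 6 (from 11) in rectum at day 20, where no filter gave 3. A pseudocount of 0.1 gave 17 (from 29) for the day 9 difference between rectum and mid-colon. With 1 mouse left out, that count ranged from 15 to 31 and the rectal day 20 count from 1 to 27.

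With 1 mouse left out, member counts ranged from 0 to 5 (mid-colon day 14), 0 to 4 (mid-colon day 20), 0 to 2 (rectum day 3), 0 to 8 (rectum day 14), 0 to 5 (rectum day 20), 3 to 8 (anus day 6), 0 to 1 (anus day 9), 0 to 2 (anus days 14 and 20), 0 to 2 (uninjured rectum against mid-colon), 1 to 4 (neo-epithelium day 20 against day 9), 2 to 4 (mid-colon day 9 against day 6) and 1 to 3 (mid-colon day 20 against day 9). Except where the filter is named, the cause was not tested. The share of all genes called was not computed for the fits with 1 mouse left out.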
